A study of Homo sapiens with 16 samples.

Results

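The cells described here were HCT116 cells, a human colorectal carcinoma line, labelled as SAM68 knockout, that had received siRNAs against the long noncoding RNA NORAD. The data are 4 of the 16 libraries of the series, chosen by their labels. The group with NORAD siRNA (HCT116, SAM68 KO, pool of siRNAs against NORAD) had 2 libraries. The group it was set against (HCT116, SAM68 KO, non-targeting control pool) had 2 libraries as well. All 4 carried the SAM68 knockout, the controls included. The same siRNA pair in wild-type HCT116 cells, with 2 libraries each, served for comparison. The siRNAs were at 50 nM and cells were harvested after 48 h. How the knockout line was made and whether it is 1 clone is not given in the labels. The labels also leave unsaid whether libraries with the same label grew as separate cultures. The p-values below rest on the spread between libraries with the same label, estimated over all 4 HCT116 groups, wild type included. That spread may therefore be technical. Poly(A) RNA was sequenced, so RNA without a poly(A) tail is not measured well.

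NORAD is an abundant cytoplasmic RNA with many copies of the sequence that Pumilio proteins bind. Pumilio proteins bind the 3′ UTRs of messenger RNAs and recruit the CCR4-NOT complex, which shortens poly(A) tails and lowers the messenger's level. NORAD binds a large share of the Pumilio protein in the cell, and its loss has been linked to lower levels of Pumilio target messengers and to unequal chromosome segregation. SAM68, the product of KHDRBS1, is an RNA-binding protein of the STAR family that regulates splicing and binds NORAD. The comparison asks what NORAD siRNA does to messenger levels in the SAM68 knockout line.

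The Pumilio motif searched here was TGTANATA, on the transcript strand. The NORAD transcript in the GENCODE annotation has 5339 bases and holds 15 copies, of which 10 are TGTATATA, 4 are TGTAAATA and 1 is TGTACATA. Of 4357 annotated transcripts within 10% of its length, 2 (0.0459%) held at least as many copies, and 42.9% held at least 1. The gene lies at chr20:36045618-36050960 of build GRCh38, which is another build than the hg19 of the files. The stretches below show copies of each of the 3 spellings in NORAD, with 10 bases on each side and the motif in capitals. They are shown because they are the sequence by which NORAD and Pumilio targets are linked.
NORAD copy 3 (chr20:36049703-36049730, minus strand): aatcacatttTGTAAATAcctttttgtt
NORAD copy 6 (chr20:36049119-36049146, minus strand): aataccacttTGTAAATAtctttttgct
NORAD copy 5 (chr20:36049493-36049520, minus strand): gtgtatatagTGTACATAaaggacagac
NORAD copy 11 (chr20:36047972-36047999, minus strand): aaccctactgTGTATATAgcggacaaac
NORAD copy 14 (chr20:36047351-36047378, minus strand): aatgctactgTGTATATAatggaaaact
Copies of the same motif in the longest annotated 3′ UTR of genes that are described below are shown beside them, with the same window.
DEK copy 1 (chr6:18225172-18225199, minus strand): ctcctgcatgTGTATATAtgtcaaattg
EIF4E copy 1 (chr4:98880077-98880104, minus strand): tgtacaaaacTGTAAATAaaatgtgtac
CDKN1B copy 1 (chr12:12721270-12721297, plus strand): gtactacctgTGTATATAgtttttacct
MZT1 copy 1 (chr13:72708610-72708637, minus strand): ctccaaaattTGTATATActtccaggcc

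NORAD fell in the knockout cells. It stood at 77.4 and 54.7 CPM (counts scaled by library size) with NORAD siRNA, against 225 and 252 CPM with control siRNA. Both treated libraries were far below both controls, and the mean left was 27.7% of the control mean. The log2 fold change was -1.85 ± 0.16 (SE, adjusted p = 0.00609, edgeR's quasi-likelihood test). In wild-type cells NORAD stood at 50.2 and 47.4 CPM with NORAD siRNA and at 249 and 232 CPM with control siRNA, a log2 fold change of -2.30 ± 0.16 and 20.3% left. The difference between the genotypes, knockout minus wild type, was 0.45 ± 0.21 on the log2 scale and did not pass the test (adjusted p = 0.642, edgeR). In the authors' own TPM, which are scaled per length, NORAD stood at 21.84 and 18.19 with NORAD siRNA and at 69.25 and 83.16 with control siRNA in the knockout cells.

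KHDRBS1, the targeted gene of the knockout line, stood at 34.4 and 44.5 CPM with NORAD siRNA and at 31.6 and 38.5 CPM with control siRNA. The groups overlapped and the log2 fold change was 0.17 ± 0.15 (adjusted p = 0.637, edgeR). In wild-type cells it stood at 206 and 224 CPM with NORAD siRNA, and at 217 and 241 CPM with control siRNA, so messenger counts remained in the knockout line at a lower level. Counts over a gene do not show whether protein is made. PUM2, which encodes a Pumilio protein, stood at 196 and 201 CPM with NORAD siRNA and at 156 and 191 CPM with control siRNA in knockout cells. Both treated libraries were above both controls, by 0.19 ± 0.13 on the log2 scale (adjusted p = 0.549, edgeR).

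**Figure D1:**
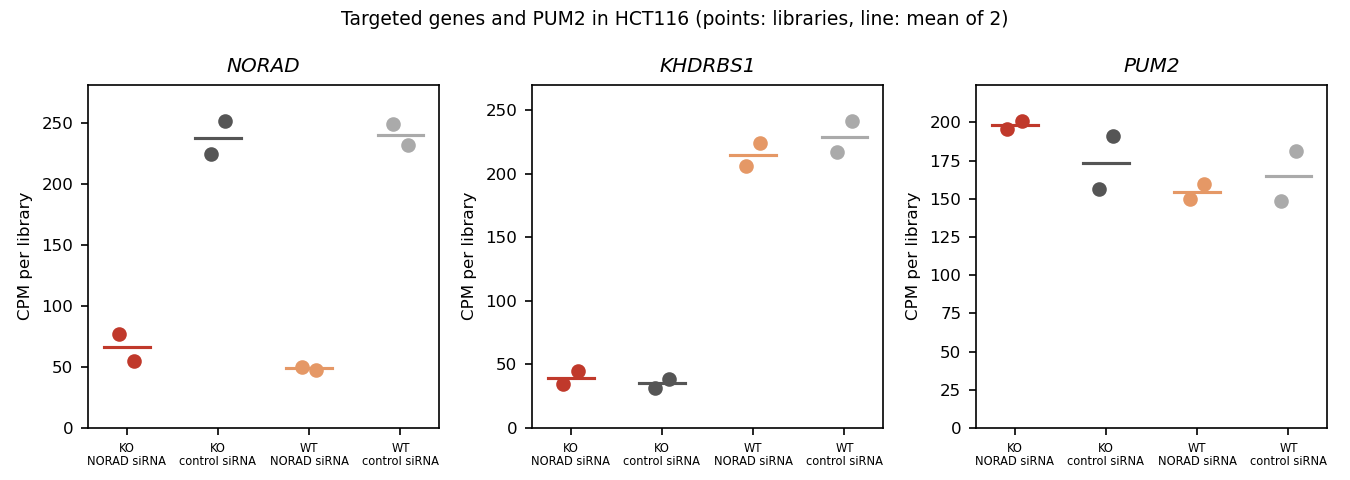
Level of NORAD, KHDRBS1 and PUM2 in CPM in the 8 HCT116 libraries; points are libraries and lines are means of 2, with NORAD siRNA left of control siRNA in each genotype. NORAD is at 77.4 and 54.7 CPM in knockout cells with NORAD siRNA and at 225 and 252 CPM in those with control siRNA.

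The knockout libraries held 18930547 and 27387412 expected counts with NORAD siRNA, and 15808640 and 20223783 with control siRNA. Control library 1 stood apart from the other 3 in its base composition. Over 11953 tested genes with an annotated 3′ UTR, the log2 ratio of control 2 over control 1 ran against 3′ UTR GC content with a Spearman rho of -0.55, while the ratio of NORAD siRNA 2 over 1 gave 0.0070. The ratios of each treated library over control 1 gave -0.68 and -0.68. Those over control 2 gave -0.27 and -0.42. In the fitted fold changes rho was -0.68 in the knockout cells and 0.38 in wild-type cells. Wild-type replicates also differed in composition. Their control 2 over control 1 had a median log2 ratio of 0.11 in the 2391 genes lowest in 3′ UTR GC content and -0.29 in the 2391 highest. Wild-type NORAD siRNA 2 over 1 had 0.11 and -0.10 in the same genes. These are descriptions across genes, which share their libraries. The mean fragment length was 193.8 and 183.1 bases with NORAD siRNA and 171.9 and 209.3 bases with control siRNA. The part of this composition in each result below was not tested on its own, but values without control 1 and with an offset for the GC content and length of the whole transcript are given beside the list medians.

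**Figure D2:**
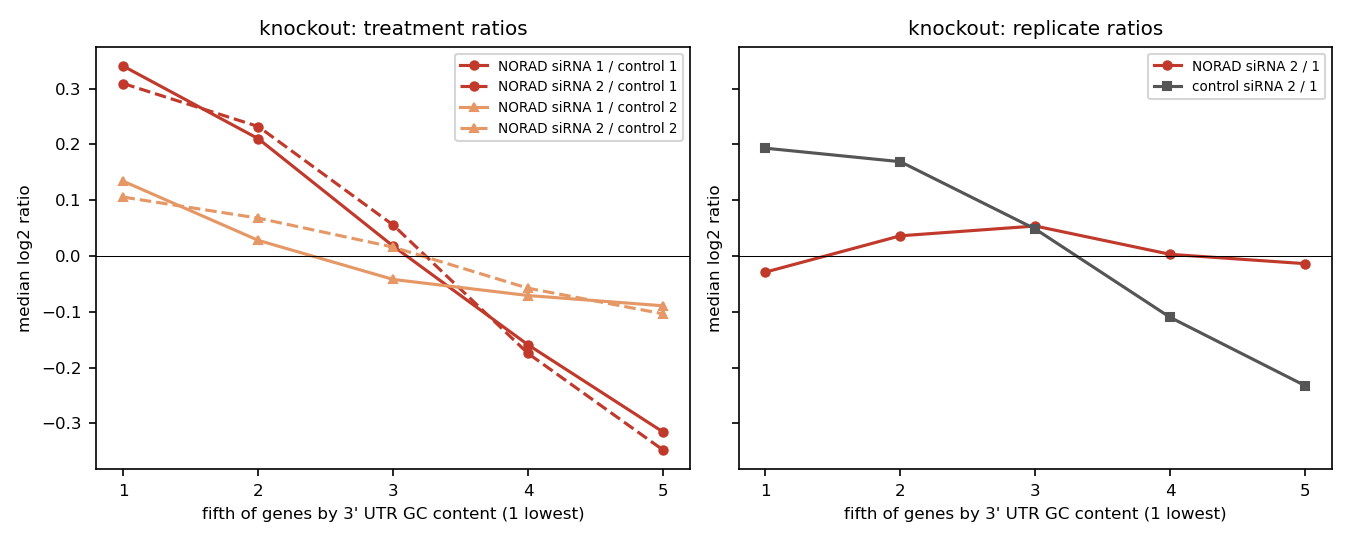
Median log2 ratio of knockout libraries in 5 equal groups of the 11953 genes by 3′ UTR GC content, from the lowest (1) to the highest (5). Ratios to control 1 slope most (medians 0.34 and 0.31 in group 1, -0.32 and -0.35 in group 5), ratios to control 2 less (0.13 and 0.11 in group 1, -0.089 and -0.10 in group 5), and the ratio of the 2 NORAD siRNA libraries is nearly flat.

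Of 13764 genes tested, 1, NORAD itself, passed an adjusted p of 0.05 in edgeR, which is 0.00727% of the genes. DESeq2 called 9 (0.0654%). At an unadjusted p below 0.05, 961 genes (6.98%) were higher with NORAD siRNA and 597 (4.34%) were lower. In wild-type cells edgeR called 1 gene, again NORAD (0.00727%), and at an unadjusted p below 0.05 there were 88 higher (0.639%) and 93 lower (0.676%). The knockout count of higher genes was 349 without control 1 and 1503 without control 2, and 279 without NORAD siRNA 1. With an offset for the GC content and length of the whole transcript, it was 310 higher and 286 lower. The 3′ UTR offset gave 489 higher and 469 lower. List counts with an offset below are to be read beside these counts over all genes, not beside 6.98% and 4.34%. In 3032 genes (22.0%) both NORAD siRNA libraries were above both controls, and in 2952 (21.4%) both were below.

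**Figure D3:**
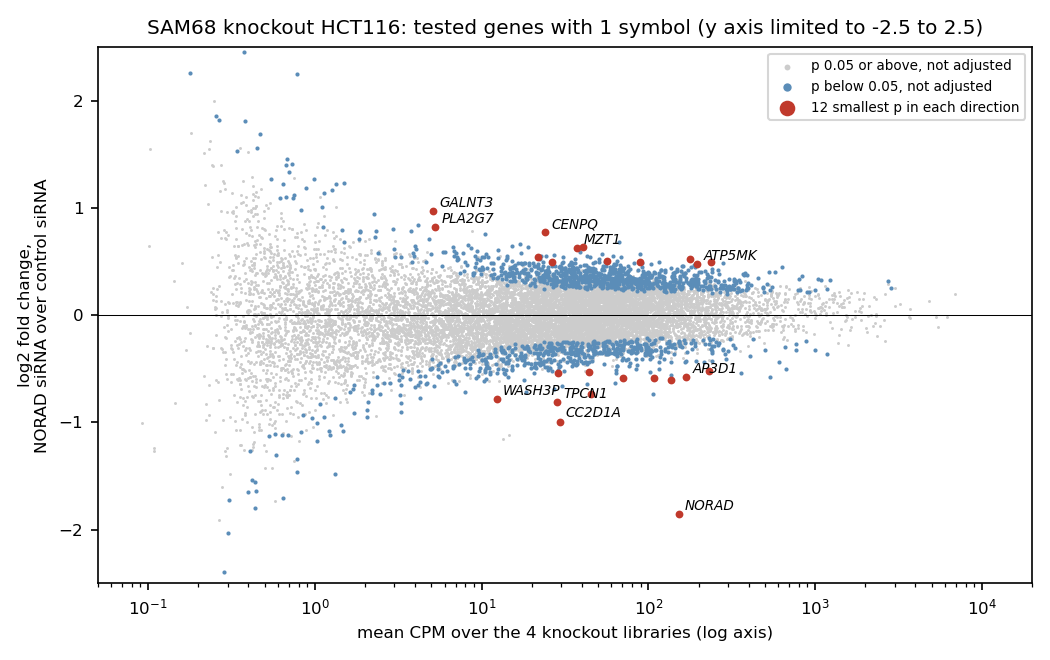
Log2 fold change (NORAD siRNA over control siRNA) against mean CPM over the 4 knockout libraries, with a log x axis. NORAD stands at -1.85, and ITGAM, below 1 CPM in each library, at -1.80. Only genes with 1 symbol are drawn, and those beyond the limits of the y axis are not shown. The 12 genes named by p in each direction are in red.

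Besides NORAD, DESeq2 called 8 further rows, of which 7 fell. None of these passed the adjusted test in edgeR. CC2D1A, a scaffold of signalling and transcription, stood at 19.5 and 19.7 CPM with NORAD siRNA and at 42.1 and 36.0 CPM with control siRNA. The groups did not overlap, and it fell by 0.99 on the log2 scale (SE 0.13, edgeR adjusted p = 0.160). It remained at -0.72 with the whole-transcript GC offset. TPCN1, a cation channel of endosomes and lysosomes, stood at 18.6 and 22.4 CPM with NORAD siRNA and at 35.6 and 36.6 CPM with control siRNA. Its log2 fold change was -0.81 ± 0.12 (edgeR adjusted p = 0.313). AP3D1, a subunit of an adaptor complex that sorts cargo to lysosomes, stood at 130 and 141 CPM with NORAD siRNA, against 208 and 197 CPM with control siRNA. ZNF385A, a zinc finger RNA-binding protein, stood at 34.7 and 33.5 CPM with NORAD siRNA, against 57.9 and 55.4 CPM with control siRNA. Both genes had treated libraries close to each other and well below both controls. With the whole-transcript offset TPCN1 was at -0.62, AP3D1 at -0.35 and ZNF385A at -0.51, against -0.81, -0.57 and -0.73 without it.

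MYO1C, an unconventional myosin, stood at 192 and 188 CPM with NORAD siRNA and at 281 and 262 CPM with control siRNA. SCARB1, the receptor for high-density lipoprotein, stood at 89.7 and 83.3 CPM with NORAD siRNA and at 140 and 120 CPM with control siRNA. FLNC, an actin cross-linker, stood at 105 and 111 CPM with NORAD siRNA and at 144 and 184 CPM with control siRNA. Its 2 controls differed most among these 3 genes. Their log2 fold changes in edgeR were -0.52, -0.59 and -0.60, and -0.30, -0.42 and -0.31 with the whole-transcript offset. DESeq2 gave an adjusted p of 0.0401 for SCARB1 and FLNC, and 0.0297 for MYO1C. The 3′ UTRs of CC2D1A, ZNF385A and FLNC had a GC content of 67.1, 63.4 and 58.9%, and none of the 7 genes had a copy of TGTANATA there.

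The 9th gene called by DESeq2 was 1 of the transcripts of RASA4, a gene with near-identical copies. That row stood at 2.25 and 1.75 CPM with NORAD siRNA and at 0 in both control libraries. The other RASA4 row stood at 2.56 and 3.73 CPM with NORAD siRNA, against 6.97 and 6.10 CPM with control siRNA. Summed over RASA4 and its copies the level was 5.36 and 6.15 CPM with NORAD siRNA, against 7.93 and 7.13 CPM with control siRNA. How the estimates divide reads between the copies is therefore uncertain.

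The 12 genes with the smallest unadjusted p among the higher genes are named here, and none of the 12 passed the adjusted test (adjusted p = 0.428 for each, edgeR). MZT1, a part of the gamma-tubulin ring complex that starts microtubules, stood at 48.2 and 42.7 CPM with NORAD siRNA and at 28.8 and 30.1 CPM with control siRNA. The groups did not overlap (log2 0.62 ± 0.12). CENPQ, a kinetochore protein, stood at 32.0 and 28.6 CPM with NORAD siRNA and at 15.1 and 20.2 CPM with control siRNA (log2 0.77 ± 0.15). ESCO2, which acetylates cohesin, stood at 66.5 and 67.1 CPM with NORAD siRNA and at 44.0 and 49.8 CPM with control siRNA. CETN3, a centrin of the centriole, stood at 54.9 and 44.5 CPM with NORAD siRNA, against 30.6 and 33.4 CPM with control siRNA. In these genes both treated libraries were above both controls, as the rule that named them requires.

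GALNT3, which starts mucin-type glycosylation, stood at 7.39 and 6.16 CPM with NORAD siRNA and at 4.11 and 2.84 CPM with control siRNA. PLA2G7, a phospholipase that breaks down platelet-activating factor, stood at 6.94 and 6.49 CPM with NORAD siRNA and at 3.66 and 3.92 CPM with control siRNA. ATP5MK, a subunit of the mitochondrial ATP synthase, stood at 233 and 222 CPM with NORAD siRNA and at 161 and 167 CPM with control siRNA. TRUB1, a pseudouridine synthase, stood at 113 and 94.9 CPM with NORAD siRNA, against 72.4 and 75.1 CPM with control siRNA. COPS2 (a subunit of the COP9 signalosome), NADK2 (the mitochondrial NAD kinase), CLDND1 (a claudin-like membrane protein) and MARCKS (an actin-binding substrate of protein kinase C) had log2 fold changes of 0.53, 0.50, 0.49 and 0.54. The 3′ UTR GC content of the genes that have an annotated one was low, at 28.1% for MZT1, 28.5% for GALNT3 and 29.5% for TRUB1. With the whole-transcript GC offset the log2 fold change was 0.18 for MZT1 and 0.16 for TRUB1, and it was 0.79 for GALNT3. ATP5MK, at 0.47, has no GC value here, so no offset was applied to it.

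Among the 12 lower genes, besides those called by DESeq2, stood WASH3P, KCTD2, MICALL1 and TGFA. WASH3P, a pseudogene of the WASH family with near-identical copies and so uncertain, stood at 9.22 and 8.97 CPM with NORAD siRNA and at 16.5 and 14.8 CPM with control siRNA. KCTD2, an adaptor of cullin ubiquitin ligases, stood at 37.8 and 34.5 CPM with NORAD siRNA and at 52.8 and 51.7 CPM with control siRNA. MICALL1, a protein of recycling endosomes, stood at 21.8 and 24.7 CPM with NORAD siRNA and at 33.6 and 34.1 CPM with control siRNA. TGFA, a ligand of the EGF receptor, stood at 62.0 and 51.0 CPM with NORAD siRNA and at 79.0 and 90.3 CPM with control siRNA. TGFA had a log2 fold change of -0.59 in the knockout and -0.71 in wild-type cells, and the whole-transcript offset left it at -0.63 in the knockout.

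**Figure D4:**
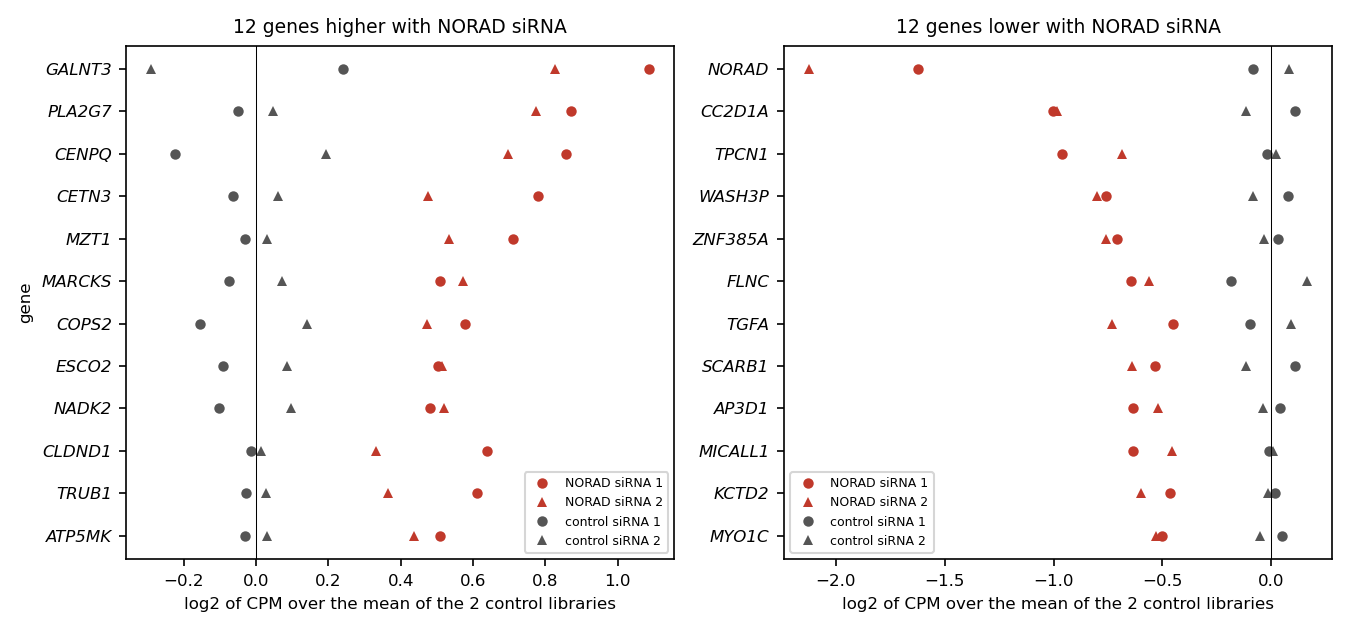
Level of the 12 higher and 12 lower genes in each knockout library as the log2 of its CPM over the mean of the 2 control libraries; red points are the NORAD siRNA libraries and grey points the controls, circles library 1 and triangles library 2. NORAD, CC2D1A and TPCN1 are lowest, and GALNT3, PLA2G7 and CENPQ highest, with the 2 controls of GALNT3 farther apart than those of the other higher genes.

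The 4 cell-division lists (spindle checkpoint, kinetochore and centromere, spindle motors and regulators, cohesin and condensin) lay higher with NORAD siRNA in most of their members, though neither edgeR nor DESeq2 called a member. Of their 87 tested genes, 73 had a positive log2 fold change, with a median of 0.24, against a median of 0.0032 over all tested genes and -0.014 for the same 87 genes in wild-type cells. At an unadjusted p below 0.05, 29 were higher (33.3%, against 6.98% of all genes) and none was lower. In 55 of them both NORAD siRNA libraries were above both controls (22.0% over all genes), and in 3 both were below (21.4%). Summed over the 87 genes the level was 11373 and 11668 CPM with NORAD siRNA, against 9720 and 10543 CPM with control siRNA. Their 3′ UTRs had a median GC content of 35.6%, against 43.0% over all tested genes with a value. The median was 0.13 without control 1 and 0.28 without control 2. The whole-transcript GC and length offset gave 0.066 with 12 higher (310 of all 13764 genes). The 3′ UTR offset gave 0.10 with 17 higher (489 of all) and 2 lower (469 of all). In bulk RNA a different share of dividing cells and a different amount of RNA per cell cannot be told apart.

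The kinetochore and centromere list had the largest median of the lists, 0.28 over 25 genes, of which 24 were positive and 12 (48.0%, against 6.98% of all genes) were higher at an unadjusted p below 0.05. The median was 0.22 without control 1 and 0.39 without control 2. The whole-transcript offset gave 0.092 with 2 higher (310 of all 13764 genes), and the 3′ UTR offset 0.17 with 6 higher (489 of all). SPC25, a part of the NDC80 complex that binds microtubules, stood at 48.0 and 53.7 CPM with NORAD siRNA and at 31.6 and 37.6 CPM with control siRNA (log2 0.55 ± 0.15). SGO2, a protector of centromeric cohesin, stood at 73.4 and 68.1 CPM with NORAD siRNA and at 48.8 and 58.9 CPM with control siRNA. In both, the treated libraries were above both controls. BOD1 was the only member below 0, at -0.016. The list does not hold every kinetochore gene. CENPT, a kinetochore protein outside it, had a log2 fold change of -0.45 ± 0.12, with both treated libraries below both controls. In wild-type cells the list's median was -0.056.

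The spindle motors and regulators had a median of 0.22 over 27 genes, with 9 (33.3%) higher at an unadjusted p below 0.05, against 6.98% of all genes. Without control 1 the median was 0.13. The whole-transcript offset gave 0.080 with 5 higher (310 of all 13764 genes), and the 3′ UTR offset 0.13 with 6 higher (489 of all). HMMR, a spindle-associated hyaluronan receptor, stood at 145 and 127 CPM with NORAD siRNA and at 89.3 and 103 CPM with control siRNA (log2 0.50 ± 0.12). CKAP2, a microtubule-associated protein, stood at 159 and 157 CPM with NORAD siRNA and at 107 and 126 CPM with control siRNA. KIF18A, a kinesin that damps chromosome movement, had a log2 fold change of 0.41 ± 0.11. PLK1, a mitotic kinase, was at -0.21 in the other direction.

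The spindle checkpoint list had a median of 0.20 over 12 genes. At an unadjusted p below 0.05, 3 were higher (25%, against 6.98% of all genes). Without control 1 the median was 0.13. The whole-transcript offset gave 0.082 with 1 higher (310 of all 13764 genes). The 3′ UTR offset gave 0.057 with 2 higher (489 of all) and 1 lower (469 of all). MAD2L1, the checkpoint protein that inhibits CDC20, stood at 241 and 196 CPM with NORAD siRNA and at 153 and 163 CPM with control siRNA (log2 0.46 ± 0.12), and TTK, the kinase that starts the checkpoint, at 123 and 103 CPM with NORAD siRNA and at 81.1 and 89.3 CPM with control siRNA. CDC20, which the checkpoint inhibits, had a log2 fold change of -0.15. Cohesin and condensin genes had a median of 0.15 over 23, with 5 (21.7%, against 6.98% of all genes) higher at an unadjusted p below 0.05. The median was 0.046 without control 1 and 0.32 without control 2. The whole-transcript offset gave 0.054 with 4 higher (310 of all 13764 genes). The 3′ UTR offset gave 0.032 with 3 higher (489 of all) and 1 lower (469 of all). The median ratio of control 2 over control 1 was 0.18 for these genes. ESCO2, STAG2 (a cohesin subunit) and SMC2 (a condensin subunit) had log2 fold changes of 0.51, 0.37 and 0.30.

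**Figure D5:**
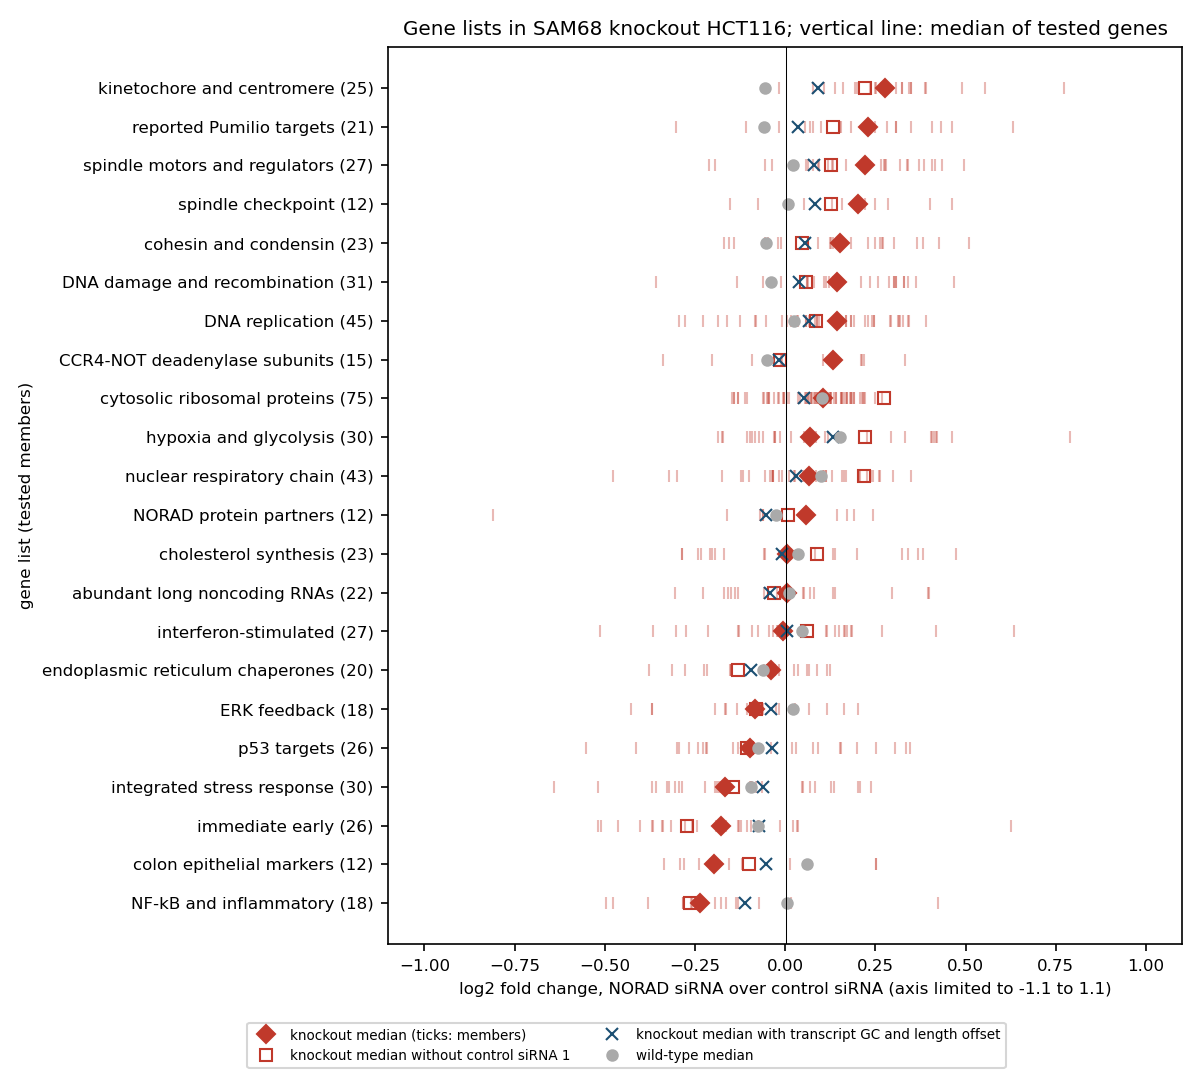
Log2 fold changes of list members in knockout cells (ticks) with their median (diamond), the median without control 1 (open square), with the whole-transcript GC and length offset (cross) and in wild-type cells (circle). The kinetochore list has a median of 0.28, which is 0.22 without control 1, 0.092 with the offset and -0.056 in wild-type cells.

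The reported Pumilio targets, messengers known from other work to be bound by Pumilio, had a median of 0.23 over 21 tested genes in the knockout cells, and of -0.058 in wild-type cells. Of these, 18 were positive and 7 (33.3%, against 6.98% of all genes) were higher at an unadjusted p below 0.05. Without control 1 the median was 0.13. The whole-transcript offset gave 0.037 with 2 higher (310 of all 13764 genes), and the 3′ UTR offset 0.057 with 4 higher (489 of all). MAD2L1, CCNE2 (a cyclin of entry into S phase) and CDK1 (the kinase of mitotic entry) had the smallest p. The list shares members with the cell-division lists, among them MAD2L1, KIF18A and BOD1, so their shifts are not separate results. CCNE2 stood at 49.3 and 46.7 CPM with NORAD siRNA and at 25.9 and 35.8 CPM with control siRNA. CDK1 stood at 277 and 274 CPM with NORAD siRNA and at 186 and 223 CPM with control siRNA.

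Targets with more motif copies did not all stand higher. EIF4E, the cap-binding initiation factor, has 7 copies in its longest annotated 3′ UTR and stood at 235 and 204 CPM with NORAD siRNA and at 174 and 181 CPM with control siRNA (log2 0.31 ± 0.10). SLC7A11, a cystine transporter with 4 copies, stood at 145 and 180 CPM with NORAD siRNA and at 127 and 183 CPM with control siRNA, and its groups overlapped. DEK, a chromatin protein with 3 copies, stood at 225 and 208 CPM with NORAD siRNA and at 161 and 179 CPM with control siRNA (log2 0.35 ± 0.11). CDKN1B, an inhibitor of cyclin-dependent kinases with 2 copies, had a log2 fold change of 0.31 ± 0.15, and E2F3, a cell-cycle transcription factor with 2, one of 0.056. E2F3's groups overlapped.

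Across all tested genes with a 3′ UTR, the median log2 fold change in knockout cells was -0.033 for 8410 genes with no copy of TGTANATA, 0.057 for 2284 with 1 copy, 0.11 for 832 with 2 and 0.14 for 427 with 3 or more. Of the genes with a 3′ UTR, 29.6% held at least 1 copy. A scrambled motif of the same composition, TATGNATA, gave -0.030, 0.11, 0.18 and 0.16 for the same classes, and 17.6% of genes held it. The 3′ UTR GC content was lower where either motif was present, at a median of 46.2% with no copy of TGTANATA and 36.6% with 3 or more. Among the 2391 genes lowest in 3′ UTR GC content the medians were 0.22 with no copy, 0.23 with 1 and 0.23 with 2 or more. Among the 2391 highest they were -0.21, -0.24 and -0.19. With the whole-transcript GC offset the 4 classes of TGTANATA had medians of 0.0049, 0.0061, 0.016 and 0.015. Copies and GC content moved together, and their parts were not tested. Matching was by letters on the transcript strand, and a copy does not show that Pumilio binds there.

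No member of the CCR4-NOT deadenylase or of NORAD's protein partners passed the adjusted test. The 15 CCR4-NOT genes had a median of 0.13, and 10 were positive. CNOT7, a catalytic subunit, stood at 202 and 202 CPM with NORAD siRNA and at 143 and 179 CPM with control siRNA (log2 0.33 ± 0.12). CNOT3, a scaffold subunit, had -0.34 ± 0.13. At an unadjusted p below 0.05, CNOT7 alone was higher (6.67%, against 6.98% of all genes) and CNOT3 alone was lower (6.67%, against 4.34%). These shares are near those over all genes, and with the whole-transcript offset neither gene passed. With the 3′ UTR offset 2 genes were higher at that p, CNOT7 and CNOT9 (489 of all 13764 genes). The list's median turned to -0.015 without control 1, to -0.017 with the whole-transcript offset and to -0.013 with the 3′ UTR offset. Among the 12 NORAD protein partners, none had an unadjusted p below 0.05, and the median was 0.057. It turned to -0.017 without NORAD siRNA 2, to -0.052 with the whole-transcript offset and to -0.084 with the 3′ UTR offset, and was 0.0087 without control 1. IGF2BP3, an RNA-binding protein, stood at 80.4 and 80.4 CPM with NORAD siRNA and at 68.9 and 66.8 CPM with control siRNA.

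DNA replication genes had a median of 0.14 over 45 and 35 positive, with 10 (22.2%, against 6.98% of all genes) higher at an unadjusted p below 0.05. The median was 0.086 without control 1. The whole-transcript offset gave 0.067 with none higher (310 of all 13764 genes), and the 3′ UTR offset 0.082 with 4 higher (489 of all). ORC3 (origin recognition complex) stood at 119 and 105 CPM with NORAD siRNA and at 82.0 and 88.5 CPM with control siRNA. GMNN, the inhibitor of origin licensing, had a log2 fold change of 0.34 ± 0.11, and PRIM1, the primase subunit, 0.31 ± 0.10. LIG1, the DNA ligase of replication, was at -0.23. DNA damage and recombination genes had a median of 0.14 over 31, with 4 higher (12.9%, against 6.98% of all genes) and 1 lower (3.23%, against 4.34%) at an unadjusted p below 0.05. The median was 0.059 without control 1 and 0.28 without control 2. The whole-transcript offset gave 0.038 with 1 higher (310 of all 13764 genes). The 3′ UTR offset gave 0.090 with 5 higher (489 of all) and 1 lower (469 of all). CHEK1, a kinase of the replication checkpoint, stood at 94.4 and 92.0 CPM with NORAD siRNA and at 69.7 and 81.6 CPM with control siRNA (log2 0.30 ± 0.11). XRCC3, a protein of recombination repair, was at -0.36 ± 0.12.

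NF-kB and inflammatory genes had a median of -0.24 over 18, with 16 below 0 and 3 (16.7%) lower at an unadjusted p below 0.05, against 4.34% of all genes. RELA, a subunit of NF-kB, stood at 53.3 and 54.9 CPM with NORAD siRNA and at 76.4 and 74.2 CPM with control siRNA (log2 -0.48 ± 0.11). RELB, another subunit, stood at 8.94 and 7.26 CPM with NORAD siRNA and at 10.4 and 12.3 CPM with control siRNA. Both genes had every treated library below every control. In wild-type cells the list's median was 0.0055. Its 3′ UTRs had a median GC content of 52.2%. In the knockout the whole-transcript offset gave a list median of -0.11 with 2 lower (286 of all 13764 genes). The 3′ UTR offset gave -0.15 with 4 lower (469 of all). The list median was -0.26 without control 1 and -0.24 without control 2.

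Immediate early transcription factors had a median of -0.18 over 26, with 22 below 0 and 4 (15.4%, against 4.34% of all genes) lower at an unadjusted p below 0.05. The whole-transcript offset gave a median of -0.073 with 1 lower (286 of all 13764 genes). The 3′ UTR offset gave -0.21 with 7 lower (469 of all), so the 2 offsets differ for this list. The median was -0.27 without control 1 and -0.16 without control 2. NR4A1, an orphan nuclear receptor, stood at 11.4 and 11.8 CPM with NORAD siRNA and at 16.6 and 16.6 CPM with control siRNA (log2 -0.51 ± 0.12). FOSL1, a part of AP-1, stood at 81.9 and 85.4 CPM with NORAD siRNA and at 114 and 102 CPM with control siRNA. ERK feedback genes had a median of -0.084 over 18, with 3 (16.7%, against 4.34% of all genes) lower at an unadjusted p below 0.05. FOSL1 belongs to this list and to the immediate early list and is counted as lower in both. The shifts of the 2 lists are therefore not separate results. The ERK feedback median was -0.082 without control 1 and -0.0021 without NORAD siRNA 1. The whole-transcript offset gave -0.041 with 1 lower (286 of all 13764 genes), and the 3′ UTR offset -0.081 with 3 lower (469 of all). EPHA2, a receptor tyrosine kinase, stood at 191 and 219 CPM with NORAD siRNA and at 274 and 278 CPM with control siRNA (log2 -0.43 ± 0.10). DUSP6, a phosphatase of ERK, had a log2 fold change of 0.20 in the other direction.

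Integrated stress response genes had a median of -0.17 over 30, with 5 (16.7%, against 4.34% of all genes) lower and none higher at an unadjusted p below 0.05. The whole-transcript offset gave a median of -0.062 with 1 lower (286 of all 13764 genes), and the 3′ UTR offset -0.077 with 4 lower (469 of all). Without control 1 the median was -0.14. Leaving out 1 library gave medians of -0.23 to -0.083. PPP1R15A, the phosphatase subunit that ends the response, stood at 34.3 and 32.9 CPM with NORAD siRNA and at 40.1 and 64.4 CPM with control siRNA. Both treated libraries were below both controls, which were far apart. SLC7A5, a leucine transporter, stood at 907 and 1161 CPM with NORAD siRNA and at 1353 and 1298 CPM with control siRNA. The 20 chaperones and partners of the endoplasmic reticulum had a median of -0.039, with 1 (5.0%, against 4.34% of all genes) lower at an unadjusted p below 0.05. Without control 1 the median was -0.13, and the highest median with 1 library left out was 0.018. The whole-transcript offset gave -0.094 with 2 lower (286 of all 13764 genes), and the 3′ UTR offset -0.10 with 3 lower (469 of all). HYOU1, a chaperone of the endoplasmic reticulum, stood at 369 and 337 CPM with NORAD siRNA and at 428 and 488 CPM with control siRNA (log2 -0.38 ± 0.11). The p53 targets had a median of -0.096 over 26. At an unadjusted p below 0.05, 2 were higher (7.69%, against 6.98% of all genes) and 3 lower (11.5%, against 4.34%). Without control 1 the median was -0.11. The whole-transcript offset gave -0.036 with none higher and 2 lower (286 of all 13764 genes were lower). The 3′ UTR offset gave -0.046, also with none higher and 2 lower (469 of all were lower). CDKN1A, a kinase inhibitor and p53 target, stood at 263 and 240 CPM with NORAD siRNA and at 339 and 330 CPM with control siRNA. RRM2B, a ribonucleotide reductase subunit and p53 target, lay in the other direction at 0.31 ± 0.13.

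For some lists the ratios between replicates were larger than the difference between groups. Among the lists above, control 2 over control 1 gave 0.24 for CCR4-NOT, 0.22 for DNA damage and recombination and 0.17 for endoplasmic reticulum chaperones. That ratio was 0.18 for cohesin and condensin. NORAD siRNA 2 over 1 gave 0.19 for CCR4-NOT and 0.14 for ERK feedback genes. The 75 tested cytosolic ribosomal protein genes had a median of 0.10, while control 2 over control 1 gave -0.34 and NORAD siRNA 2 over 1 gave -0.42. RPS3A, a ribosomal protein, stood at 3426 and 2570 CPM with NORAD siRNA and at 2634 and 2267 CPM with control siRNA. Nuclear respiratory chain genes (median 0.066, with ratios of -0.29 and -0.28 in the same order), hypoxia and glycolysis genes (0.069, with -0.25 and -0.36) and cholesterol synthesis genes (0.0061, with -0.22 and -0.34) gave the same picture. In cholesterol synthesis, MSMO1, a demethylating oxidase, stood at 76.9 and 72.04 CPM with NORAD siRNA and at 46.9 and 60.0 CPM with control siRNA, and SREBF2, the master regulator, at 177 and 166 CPM with NORAD siRNA and at 226 and 193 CPM with control siRNA. Among abundant long noncoding RNAs the median was 0.0050 over 22. SNHG6, a small nucleolar RNA host gene, stood at 137 and 127 CPM with NORAD siRNA, against 92.3 and 108 CPM with control siRNA. Interferon-stimulated genes had a median of -0.0054 over 27, with replicate ratios of 0.0076 (controls) and -0.28 (NORAD siRNA). Without control 1 the medians of the ribosomal, respiratory, hypoxia, cholesterol, noncoding and interferon lists were 0.27, 0.22, 0.22, 0.087, -0.032 and 0.061. With the whole-transcript offset they were 0.053, 0.031, 0.13, -0.0087, -0.041 and 0.0054 in the same order.

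Summed marker levels were highest for the colon epithelial list in all 4 libraries. Of 18 colon epithelial markers, 11 stood at 1 CPM or more in all of them, while CDX1 and VIL1 were at 0 and CDH17 and GPA33 reached at most 0.0555 and 0.253 CPM. The median of the 12 tested was -0.20 in the knockout (-0.10 without control 1 and -0.053 with the whole-transcript offset) and 0.061 in wild-type cells. The summed level of all 18 was 4900 and 4382 CPM with NORAD siRNA and 5442 and 4893 CPM with control siRNA. KRT18 had a log2 fold change of -0.24 and EPCAM one of 0.25. The 17 mesenchymal markers summed to 36.0 and 34.2 CPM with NORAD siRNA and to 36.7 and 35.9 CPM with control siRNA. Of these, 6 stood at 1 CPM or more in all 4 libraries, and 4, COL1A2, POSTN, LUM and DCN, were at 0. FN1 stood at 12.8 and 13.6 CPM with NORAD siRNA and at 13.3 CPM in both control libraries. COL1A1 ranged from 6.46 to 12.01 CPM over the 4 libraries, and the epithelial marker CDX2 from 9.66 to 12.5 CPM. Of the 15 blood, endothelial and liver markers, 1 (CD68) reached 1 CPM in all 4, and CD3E and HBB were among those at 0. The summed level was 11.7 and 8.85 CPM with NORAD siRNA and 12.004 and 11.652 CPM with control siRNA.

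In edgeR no gene passed the test of the difference between the genotypes (0 of 13764, or 0.0%, at an adjusted p below 0.05), and DESeq2 called 2 rows. These are transcripts of RGPD8 and RGPD5, near-identical gene copies whose split of reads is uncertain, and they are named here after their values were seen. The RGPD8 row stood at 4.72 and 7.04 CPM with NORAD siRNA and 6.70 and 15.5 CPM with control siRNA in the knockout, and at 16.7 and 21.8 CPM with NORAD siRNA and 9.13 and 6.43 CPM with control siRNA in wild-type cells (DESeq2 log2 difference -2.20 ± 0.46, adjusted p = 0.0117, edgeR adjusted p = 0.642). The RGPD5 row stood at 27.7 and 26.4 CPM with NORAD siRNA and 15.6 and 20.1 CPM with control siRNA in the knockout, and at 3.21 and 6.38 CPM with NORAD siRNA and 11.0 and 18.4 CPM with control siRNA in wild-type cells (DESeq2 log2 difference 2.24 ± 0.40, adjusted p = 0.000241, edgeR adjusted p = 0.642). The differences of the 2 copies had opposite signs. At an unadjusted p below 0.05, 692 genes (5.03%) were more positive in the knockout and 356 (2.59%) more negative. The base composition of knockout control 1 enters this difference too, as does that of the wild-type libraries. For the naming by p below, only rows with 1 symbol and at least 5 CPM in the highest library were ranked. The RGPD8 and RGPD5 rows are therefore left out of it. Of the ranked genes more positive in the knockout, PLA2G7 had the smallest p. Its log2 fold change was 0.82 in the knockout and -0.47 in wild-type cells, a difference of 1.28 ± 0.28 (adjusted p = 0.642, edgeR). MZT1 had 0.62 in the knockout and -0.15 in wild-type cells. DCUN1D1, a cullin neddylation factor, had 0.50 in the knockout and -0.30 in wild-type cells. TRUB1 had 0.49 in the knockout and -0.18 in wild-type cells, and TMEM65, a membrane protein of mitochondria, 0.43 in the knockout and -0.43 in wild-type cells. KIFC2, a kinesin, lay in the other direction with -0.49 in the knockout and 0.39 in wild-type cells, and PER1, a circadian repressor, with -0.44 in the knockout and 0.12 in wild-type cells. DOCK6, an exchange factor for small GTPases, CENPT, a kinetochore protein, and WASH3P had -0.44, -0.45 and -0.78 in the knockout and 0.12, 0.14 and -0.025 in wild-type cells. CC2D1A, TPCN1 and TGFA were lower in both genotypes, at -0.99, -0.81 and -0.59 in the knockout and -0.44, -0.50 and -0.71 in wild-type cells. Across genes the 2 sets of log2 fold changes gave a Pearson correlation of -0.074 and a Spearman rho of -0.22.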

How the data were processed

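Poly(A) RNA libraries of HCT116 cells were analysed, 8 in 4 groups of 2; the U2OS libraries of the series were not used. Per the file headers, the deposited tables are RSEM gene estimates, 1 file per library with no pooling. The authors' expected counts (estimated read counts, not normalized) were used as deposited and rounded to whole numbers. TPM as deposited, per the file headers, are printed for NORAD alone. The effective length, another deposited column, per the file headers in bases, gave the fragment length. Per the submitters' processing notes, the tools were STAR and RSEM (versions not given in the sources used here) and the build hg19. Per the labels' protocols the library kit keeps strand, but whether counting used it is not given in the sources used here, so overlapping, antisense and near-identical genes are uncertain. Of 27434 rows, 109 gene rows had no symbol, with 0.0271% of counts. A further 1380 rows are single transcripts without a gene symbol, with 2.225% of counts, and 433 rows join several genes. These rows were tested where counts sufficed, but were left out of the lists and of the ranking by p.

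Low counts were removed by filterByExpr, and TMM set the scaling. The quasi-likelihood F-test of edgeR 4.0.16 under R 4.3.3 was used, with Benjamini-Hochberg adjustment over 13764 genes and calls at 0.05. The 4 groups shared 1 estimate of the spread, a biological coefficient of variation of 11.3%. SE is the fold change divided by the root of F. The step was tested on simulated data. DESeq2 1.42.0, no filter, other scaling, 1 genotype alone, a replicate block, leaving out each library, and GC and length offsets (mgcv 1.9.3; the whole-transcript one chosen after seeing the data) were alternatives. Genes without a GC value got no offset. Motifs were counted in the longest 3′ UTR of GENCODE 29. Replicate libraries were compared by chi-square, at 7.83 to 20.5 per gene, above counting noise. With 2 libraries a group, exact permutation has a lowest two-sided p of 0.333.

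The genes, the lists and their members were chosen with earlier results of these data known. Named genes were NORAD, KHDRBS1 and PUM2, every gene called in the knockout comparison by edgeR or DESeq2, in each direction the 12 genes with the smallest p at 5 CPM or more with no overlap of the knockout groups, for each list 3 members in the direction of its median and 1 in the other, and 5 per direction for the difference of effects. The 12 and the 5 per direction were drawn only from rows with 1 symbol, the 5 at 5 CPM or more in the highest library. Sequences were taken for NORAD, for the targets with most motif copies and for 1 of the 12 higher genes.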

Additional observations from a re-analysis of the deposited data

How the results depend on the processing

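NORAD in knockout cells kept its direction and its call under every alternative run, with log2 fold changes of -2.12 to -1.63 when 1 library was left out. The count of called genes moved. In knockout cells it was 1 as reported, 9 in DESeq2, 61 with no filter on low counts, 7 with 1 genotype alone in the fit, 13 with the replicate block, and 1 to 4 when 1 library was left out. In wild-type cells it was 1, and 5, 33, 2, 13 and 1 to 2 under the same alternatives. For the difference of effects it was 0, 2 in DESeq2, 30 with no filter, 5 with the replicate block, and 0 to 1 when 1 library was left out. Replicate numbers had correlations of 0.105 (knockout) and 0.156 (wild type) between siRNAs, with only 2 numbers, so pairing is not established. The unadjusted count of higher genes in the knockout was 961, 349 without control 1, 1503 without control 2, 279 without NORAD siRNA 1, 489 with the 3′ UTR offset and 310 with the whole-transcript offset.

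With the 3′ UTR offset the sign turned for KHDRBS1 (-0.014), CDC5L (-0.019), PRPF19 (0.0094), MAU2 (0.017), CANX (-0.023) and CD68 (0.096). With the whole-transcript offset it turned for CDC5L (-0.051), MAU2 (0.020), CANX (-0.020), STARD4 (-0.0024), RPL7 (-0.031), RPL8 (0.031), COX6C (-0.00033) and CD68 (0.050). Leaving out 1 library gave ranges across 0 for KHDRBS1 (-0.037 to 0.34), BOD1 (-0.085 to 0.043), ISG15 (-0.62 to 0.061), IFI27 (-1.32 to 0.13), RPL8 (-0.32 to 0.043), LYZ (-1.15 to 0.024) and CD68 (-0.38 to 0.28). None of these genes had an unadjusted edgeR p below 0.05 as reported, and the cause was not tested.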
